A study of Homo sapiens with 2 samples.

Results

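The genes described here are those of the mitochondrial ribosomal proteins. They were taken by name as the protein-coding genes of GENCODE release 44 called MRPL or MRPS with a number and, for some, a letter. This gave 78 members of 20033 protein-coding genes, of which 49 were named for the large subunit (MRPL) and 29 for the small subunit (MRPS). They lay on 21 chromosomes, with 40 on the plus strand and 38 on the minus strand, so they do not form a cluster in the genome. The data were CUT&Tag profiles of J.gamma1, an established line of T-cell acute lymphoblastic leukemia (T-ALL), with an antibody against NUDT21. Both replicates formed 1 group, for which the labels name no treatment or genetic change, and no control antibody or NUDT21-depleted sample was analysed here. The study's methods call the replicates independent biological replicates of this 1 line. Replicate 1 had a list of 97162 peaks and replicate 2 had a list of 68532, with 92722 and 66671 of them on chromosomes 1 to 22, X and Y, and the absolute depth is unknown.

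Mitochondria translate the few proteins of their own genome, all of them parts of the oxidative phosphorylation system, on a ribosome whose RNA comes from mitochondrial DNA. Every protein of that ribosome is encoded in the nucleus, made in the cytosol and imported, so its supply depends on many separate nuclear promoters. Many of these promoters are GC-rich, lack a TATA box and lie head to head with another gene. NUDT21 is the small subunit of cleavage factor Im, which binds UGUA in pre-mRNA upstream of the poly(A) site and takes part in choosing where the transcript ends. CUT&Tag instead reports the DNA near which the antibody's target lies, so a peak at a start is proximity to promoter chromatin and no measure of polyadenylation. Names do not always follow structure in this family: MRPS30 and MRPS18A are placed in the large subunit of the mitoribosome, and MRPS36 is known as a component of the alpha-ketoglutarate dehydrogenase complex. The groups below follow the names, and where the placement matters both counts are given.

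Promoter sequence is shown first for the members at both ends of the measurements, 3 whose promoter peaks ranked highest, 3 of those without a peak in either list, and a member of a close head-to-head pair. Each sequence is the hg38 reference from 250 bases before to 50 bases after the start of the Ensembl canonical transcript, 5′ to 3′ on the strand of the gene, with the peak values given further on. Capitals mark exact matches on either strand to CCGGAAGT (an ETS factor word), GCGCANGCG (an NRF1 word) and AAGATGGCG (a YY1 word).
MRPS34 promoter, chr16:1773085-1773384, minus strand: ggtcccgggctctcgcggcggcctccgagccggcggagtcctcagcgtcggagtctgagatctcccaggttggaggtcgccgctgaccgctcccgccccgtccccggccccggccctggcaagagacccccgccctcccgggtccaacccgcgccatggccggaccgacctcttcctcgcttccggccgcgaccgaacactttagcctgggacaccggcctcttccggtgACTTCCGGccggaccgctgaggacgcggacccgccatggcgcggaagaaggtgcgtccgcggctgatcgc
MRPL54 promoter, chr19:3762432-3762731, plus strand: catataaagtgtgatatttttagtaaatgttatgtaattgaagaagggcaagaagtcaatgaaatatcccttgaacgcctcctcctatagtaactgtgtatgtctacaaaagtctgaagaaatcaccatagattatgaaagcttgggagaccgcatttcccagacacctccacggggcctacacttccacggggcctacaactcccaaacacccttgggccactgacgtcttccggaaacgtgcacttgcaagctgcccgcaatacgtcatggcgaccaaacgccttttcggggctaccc
MRPL34 promoter, chr19:17305622-17305921, plus strand: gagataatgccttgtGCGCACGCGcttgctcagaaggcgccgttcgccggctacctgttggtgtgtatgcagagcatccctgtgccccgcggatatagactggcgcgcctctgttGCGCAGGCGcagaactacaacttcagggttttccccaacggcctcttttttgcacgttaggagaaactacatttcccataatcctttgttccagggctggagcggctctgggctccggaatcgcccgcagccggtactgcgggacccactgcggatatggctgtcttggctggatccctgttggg
MRPS11 promoter, chr15:88467458-88467757, plus strand: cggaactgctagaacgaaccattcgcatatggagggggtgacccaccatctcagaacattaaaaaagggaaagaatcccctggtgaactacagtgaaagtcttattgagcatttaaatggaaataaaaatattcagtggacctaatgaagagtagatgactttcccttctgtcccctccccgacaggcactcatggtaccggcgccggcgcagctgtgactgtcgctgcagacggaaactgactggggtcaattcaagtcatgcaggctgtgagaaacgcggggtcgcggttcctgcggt
MRPL33 promoter, chr2:27771469-27771768, plus strand: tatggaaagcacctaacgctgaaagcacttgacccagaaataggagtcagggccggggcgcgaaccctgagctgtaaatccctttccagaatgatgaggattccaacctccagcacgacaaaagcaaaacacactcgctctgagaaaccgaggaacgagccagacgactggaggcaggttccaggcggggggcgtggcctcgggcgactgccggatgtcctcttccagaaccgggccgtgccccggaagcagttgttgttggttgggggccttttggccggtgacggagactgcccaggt
MRPS18A promoter, chr6:43687742-43688041, minus strand: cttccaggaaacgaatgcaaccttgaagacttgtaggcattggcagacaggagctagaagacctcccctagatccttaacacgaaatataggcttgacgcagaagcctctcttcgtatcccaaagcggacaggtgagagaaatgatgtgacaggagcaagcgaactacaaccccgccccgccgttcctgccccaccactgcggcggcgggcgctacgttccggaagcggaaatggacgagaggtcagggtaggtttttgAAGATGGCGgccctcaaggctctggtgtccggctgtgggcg
MRPL49 promoter, chr11:65122071-65122370, plus strand: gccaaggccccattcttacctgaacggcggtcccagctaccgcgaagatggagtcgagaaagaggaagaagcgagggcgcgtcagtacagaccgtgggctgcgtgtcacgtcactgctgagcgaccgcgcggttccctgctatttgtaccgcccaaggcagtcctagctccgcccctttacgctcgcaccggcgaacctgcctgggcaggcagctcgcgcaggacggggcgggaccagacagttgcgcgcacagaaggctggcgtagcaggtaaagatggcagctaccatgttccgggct
Among the 3 highest members, MRPS34 held an ETS word in reverse and a promoter GC of 73.7%, MRPL34 held the NRF1 word at 2 places, and MRPL54 held none of these words and had a GC of 47.3%. Among the members without a peak, MRPS18A held the YY1 word just after its start, and MRPS11 and MRPL33 held none. The window around the 5′ end of the MRPS11 gene, which is not printed, does hold the YY1 word. The MRPL49 window also held none, and runs on its left side into FAU, which encodes a protein of the cytosolic ribosome and is read in the opposite direction. The highest peaks of MRPS34 had summits 9648 and 9672 bp from its canonical start, and those of MRPL34 13108 and 13063 bp. Their rank can therefore not be read against the words or GC of the windows shown.

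To ask how often NUDT21 signal lay at these promoters, a promoter peak was counted where the nearest edge of a peak was within 3000 bp of any annotated transcript start of the gene. Of the 78 members, 69 (88.5%) had a promoter peak in replicate 1 and 61 (78.2%) in replicate 2. The background over all protein-coding genes was 69.8% in replicate 1 and 57.9% in replicate 2. In both replicates 60 members had one, a share of 76.9% with a 95% Wilson interval of 66.4% to 84.9%, against 57.0% of all protein-coding genes. Intervals of shares cover counting error only. A peak was absent from both lists for 8 members (10.3%), against 29.3% of all protein-coding genes. Most mitoribosomal promoters therefore lay near a NUDT21 peak, and they did so more often than protein-coding genes at large.

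Promoter GC was compared next because occupancy rises with it. GC was taken over 250 bp before to 50 bp after the gene's 5′ end. Members had a median GC of 60.2% (41.3% to 82.3%) and all protein-coding genes 60.3%. For each member, the non-member protein-coding genes within 2 percentage points of its GC were taken, between 471 and 2740 genes per member. On average 62.4% of these had a peak in both replicates, which left the members 14.6 percentage points higher. In single lists the shares of genes of like GC were 75.5% and 63.3%, also below those of the members. The excess over other genes was smallest between 50% and 55% GC, where 6 of 11 members (54.5%) and 50.8% of other genes had a peak in both lists. Below 50% GC, 6 of the 7 members had a peak in both lists: 2 of 2 under 45%, where the share of other genes was 20.3%, and 4 of 5 between 45% and 50%, where it was 38.5%. GC was read at the gene's 5′ end and peaks were counted at any start, and for 24 of the 78 members the 5′ end lay over 100 bp from the canonical start, MRPS27 and MRPL37 among these low-GC members. With GC and peaks both taken at the canonical start, 59 members (75.6%) had a peak in both lists against 55.7% of genes of like GC. Members did differ from other genes in CpG content, with a median observed-to-expected CpG ratio of 0.87 against 0.70, and its part in the result was not tested.

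**Figure D1:**
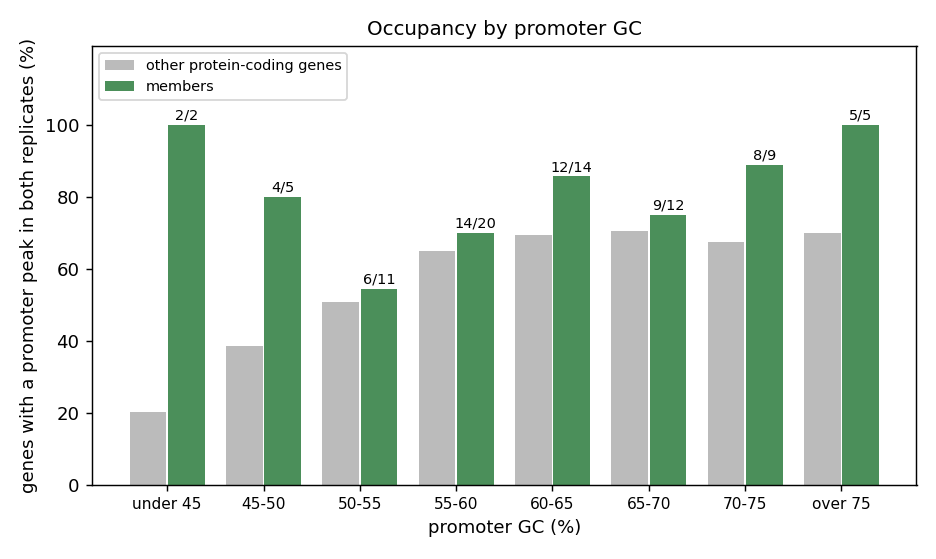
Bars give the percentage of genes with a NUDT21 promoter peak in both replicates by promoter GC, for members (green, with counts over the bars) and other protein-coding genes (grey). The green bar is above the grey one in every GC class, least at 50% to 55% GC with 6 of 11 members, and classes with few members carry wide counting error.

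A stricter count asked for a peak that covered the canonical transcript start itself. This held in both lists for 46 members (59.0%), against 33.9% of all protein-coding genes and 37.6% of genes of like GC. In single lists it held for 61 members in replicate 1 and 48 in replicate 2. The stricter count does not depend on peaks that only reach into the 3000 bp around a start, and the distance between members and other genes was wider under it.

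The height of the peaks was then compared within each list. The deposited value is the fold enrichment at the summit over the local background, and since folds of separate lists are not on 1 scale, each member's highest promoter peak was ranked as the percentage of that list's peaks with a lower fold. The members with a peak had a median percentile of 92.7 in replicate 1 and 83.7 in replicate 2, where all protein-coding genes with a peak had 82.4 and 77.9. Against occupied genes of like GC, the median difference was 8.40 percentile points in replicate 1 and 4.02 in replicate 2. The members were spread over the whole range, since only 40 of 69 in replicate 1 and 35 of 61 in replicate 2 stood above the median of their genes of like GC. The upper 20% of the list held 41 members in replicate 1 and 34 in replicate 2, which is 59.4% and 55.7% of those with a peak, against 53.0% and 47.3% for all protein-coding genes. The lower 20% held 8 and 6 members, which is 11.6% and 9.84% of those with a peak, against 9.12% and 10.7%. In the 27 members with no start of another gene within 3000 bp, 18 (66.7%) had a peak in both lists, against 50.2% of genes of like GC restricted alike. Their rank difference from such genes was −3.97 in replicate 1 and 8.14 in replicate 2, so its sign in replicate 1 was not kept. With lists cut to their 10000 strongest peaks by −log10 p it was 2.60 and −7.03, and with GC taken over 1000 bp either side of the 5′ end the replicate 2 value was 8.40. The sign of the rank difference thus depended on the setting in each list.

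**Figure D2:**
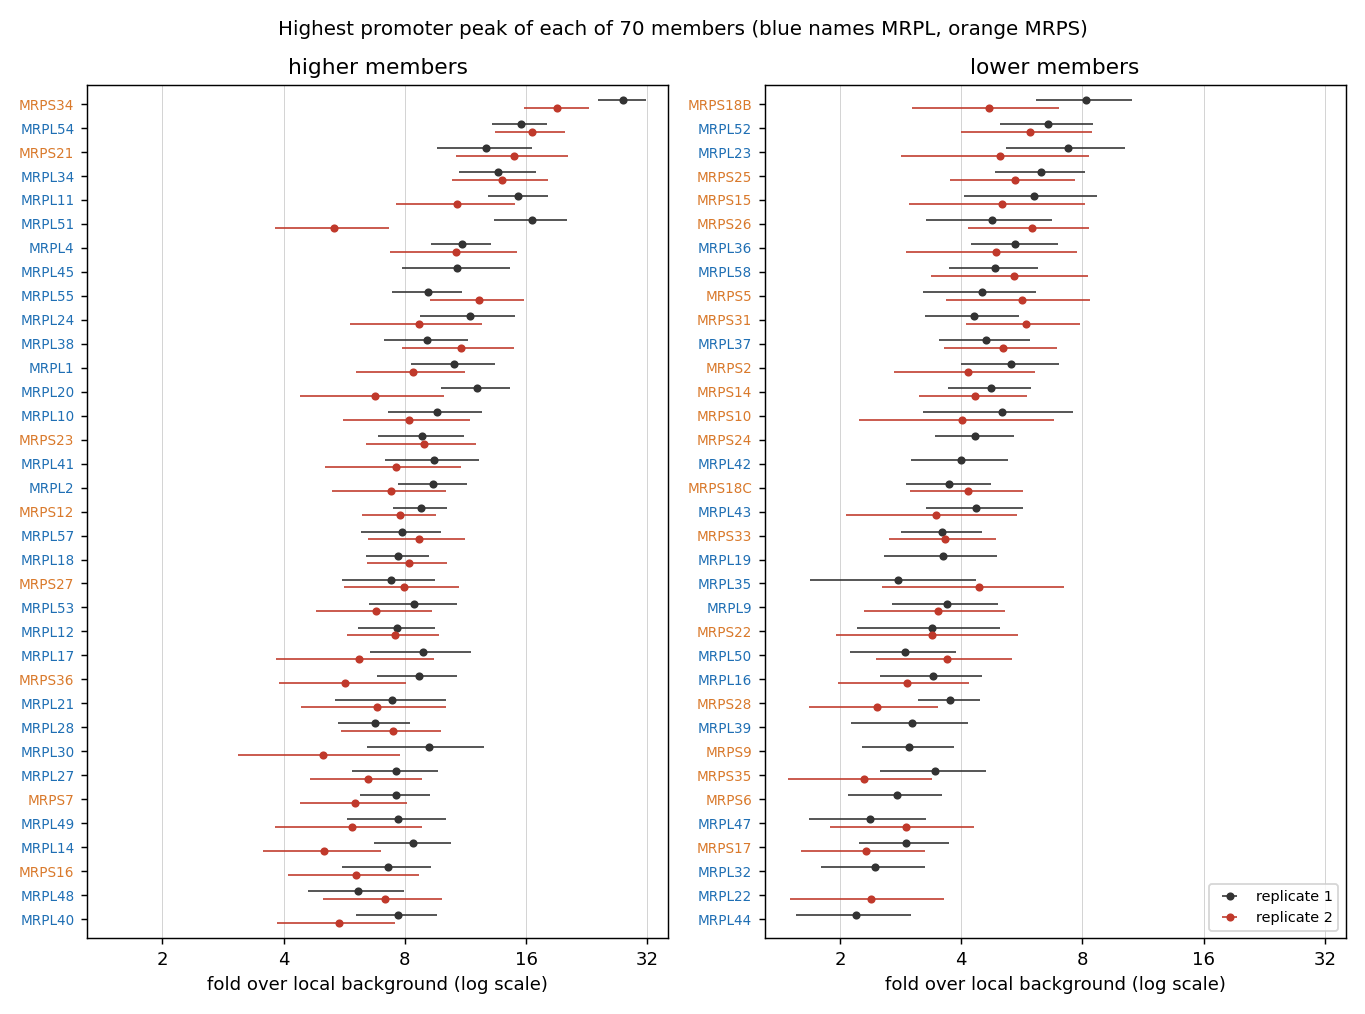
Each row is a member, with the fold over local background (log scale) of its highest promoter peak in replicate 1 (black) and replicate 2 (red). Bars are 95% Poisson intervals of the fragments at the summit. The control level is held fixed, so its own counting error is left out and the bars are too narrow. Replicate 1 folds run from 2.19 to 27.8 and replicate 2 folds from 2.29 to 19.1, and 8 members without a peak are not drawn.

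The large and small subunit genes had like occupancy and unlike rank. Of 49 MRPL genes, 37 (75.5%) had a promoter peak in both lists, and of 29 MRPS genes 23 (79.3%) did. With MRPS30 and MRPS18A counted by structure in the large subunit, the counts were 37 of 51 (72.5%) and 23 of 27 (85.2%). The median percentile of the MRPL genes was 93.9 in replicate 1 and 89.4 in replicate 2. That of the MRPS genes was 72.1 and 77.9, below the MRPL genes in both lists. Relative to genes of like GC, the median difference was 9.30 and 10.3 for MRPL genes and −10.2 and −0.124 for MRPS genes. For peaks over the canonical start, the MRPL medians were 93.7 and 84.8 and the MRPS medians 59.7 and 81.5, so the gap was narrow in replicate 2 on this count. The MRPL genes also had a higher median promoter GC, 61.7% against 58.7%. The ranges overlapped almost fully, in replicate 1 from 1.83 to 99.6 for MRPL genes and 12 to 99.9 for MRPS genes.

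Members were also split by descent. Proteins with a bacterial counterpart form the inherited core of the ribosome, and those without one were gained in mitochondria. Of the former, 34 of 46 (73.9%) had a peak in both lists, with median percentiles of 92.9 and 84.8. Of the latter, 23 of 29 (79.3%) did, with medians of 88.1 and 83.7. MRPL55, MRPS28 and MRPS36 were not classed. The intervals of both shares, 59.7% to 84.4% and 61.6% to 90.2%, overlapped widely.

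The replicates ranked the members alike. Over the 60 members with a peak in both lists, the folds had a Spearman rho of 0.813 and a Pearson r of 0.843 on the log2 scale, and over all 11425 such protein-coding genes these were 0.804 and 0.813. Both libraries share the cell line, the antibody and the sequence of each promoter, and whether they share a control library was not tested. The correlations are therefore given as a description. The highest peaks of the replicates overlapped for 50 of the 60 members, with a median distance of 137 bp between their summits. The percentile was higher in replicate 1 for 39 members and in replicate 2 for 21, and the median absolute difference was 8 points.

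**Figure D3:**
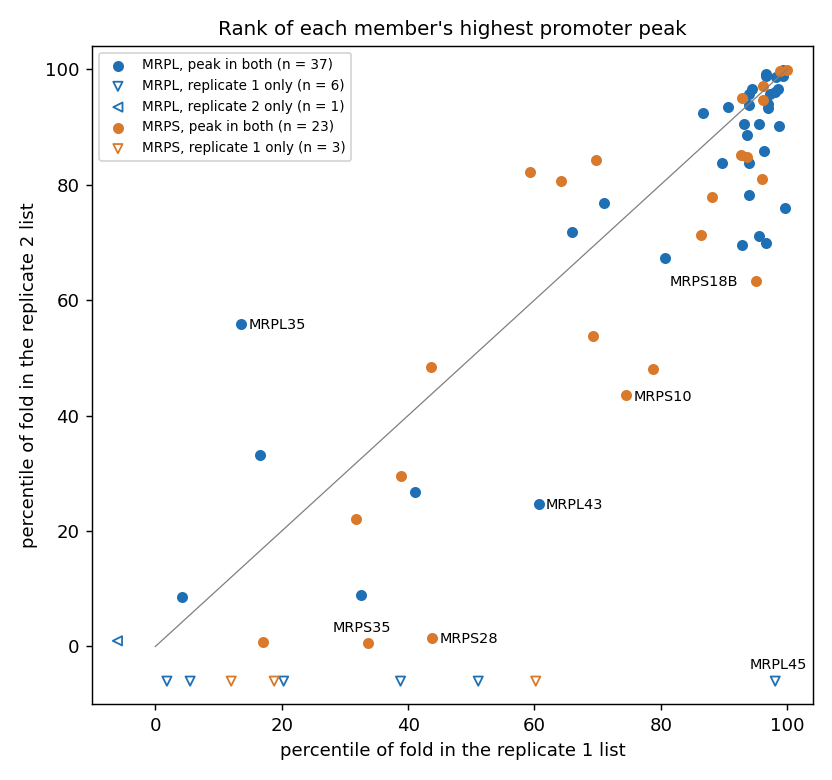
Each point is a member, placed by the percentile of its highest promoter peak in the replicate 1 list (horizontal) and the replicate 2 list (vertical), blue for MRPL and orange for MRPS; open triangles at the edges had a peak in 1 list. Of the 60 members with both values, many lie in the upper right corner and the others spread down to the lower left. The labelled members are the 6 with the largest differences and MRPL45.

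The strongest signal stood at MRPS34, a small subunit gene on chromosome 16 that overlaps head to head with EME2, which encodes a partner of the MUS81 endonuclease. Its fold was 27.8 (24.2 to 31.8) in replicate 1, from 210 fragments at the summit over a control level of 6. In replicate 2 it was 19.1 (15.8 to 22.9), from 114 fragments over 5.01. The control level is the local background that the peak caller set against the fragments at the summit, recovered here from the deposited fold and −log10 p. Intervals of folds hold this level fixed and leave out its own counting error, so they are too narrow. The pileup of replicate 1 came out scaled, as the peak caller does when it sets a library against a control of another depth, yet the methods describe no control library. The sources used here do not name what the control level and the fold were measured against. Many recovered levels of replicate 1 were whole numbers, while levels such as 3.90, 5.01 and 6.13 recurred at several members in replicate 2. At MRPL52, where both lists had the same summit, the levels were 7 in replicate 1 and 3.90 in replicate 2. At MRPS27, also with the same summit, they were 6.14 and 3.79. Whether both lists were set against 1 control library was not tested. Both folds of MRPS34 lay above 99.9% of their list. The peak was 27320 bp long in replicate 1 and 12508 bp in replicate 2 and covered the MRPS34 start, but its summit lay 9632 and 9656 bp upstream of the nearest MRPS34 start, nearest to SPSB3, which encodes a substrate adaptor of a ubiquitin ligase. The height was reached among several gene starts and cannot be assigned to MRPS34 alone.

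MRPL54 came second and had its summit at its own start. The fold was 15.5 (13.2 to 18) in replicate 1 and 16.5 (13.4 to 20) in replicate 2. The summits lay 64 and 62 bp downstream of the nearest MRPL54 start, inside peaks of 1295 bp (chr19:3762572-3763866, hg38) and 742 bp (chr19:3762570-3763311). MRPL54 has no bacterial counterpart, and its promoter, with a GC of 47.3%, is printed above. MRPS21, a small subunit gene on chromosome 1 with no other gene's start near its peak, had folds of 12.7 (9.59 to 16.5) and 14.9 (10.7 to 20.3). Its summits lay 13 bp before and 116 bp after its nearest start.

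For MRPL34 and MRPL11 the highest peaks stood far from the canonical start. MRPL34, which encodes one of the smallest large subunit proteins, had folds of 13.6 and 13.9. These summits stood 131 and 176 bp from an annotated MRPL34 start but 13108 and 13063 bp upstream of the canonical one, where the peak reached percentiles of 88.7 and 81.1. MRPL11, whose protein sits near the GTPase centre of the ribosome, had folds of 15.3 and 10.8 at peaks 27784 and 29276 bp upstream of its canonical start. The replicate 1 summit lay 106 bp from an annotated MRPL11 start, and the replicate 2 summit 1386 bp upstream of one, nearest to PELI3. The peak over the canonical MRPL11 start was at percentiles of 82.0 and 64.1. MRPL4, which encodes a protein lining the exit tunnel, had folds of 11.1 and 10.7. Its replicate 1 summit lay 15 bp from its nearest start, and its replicate 2 summit 3817 bp from it, in another peak nearer to a gene without a symbol. The peaks over its canonical start were at percentiles of 98.2 and 98.4. Peaks covering the canonical start thus ranked as high as the highest peak, or nearly so, for MRPS34, MRPL54, MRPS21 and MRPL4, of which MRPL54 and MRPS21 had their summits near that start in both lists.

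The lowest members with a peak in both lists had high control levels. A peak of low fold passes the lists' limit of −log10 q only with enough fragments, so this pairing is partly set by that limit. MRPL47 had folds of 2.37 and 2.91, at percentiles of 4.26 and 8.58. MRPS17 had folds of 2.91 and 2.32, at percentiles of 17.1 and 0.747. Yet MRPS17, a small subunit gene on chromosome 7, had 59 fragments at its summit in replicate 1, more than the 54 of the high-ranking MRPS21. The control level was 18 at MRPS17 and 3 at MRPS21. MRPS35 had folds of 3.44 and 2.29, MRPL16 of 3.41 and 2.93, and MRPL50 of 2.90 and 3.69. MRPS28, with folds of 3.75 and 2.47, had 125 fragments in replicate 1 over the highest control level of all members, 30.

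The split of fold into fragments and control level was followed over all members. Members had a median of 57 fragments over a control level of 8 in replicate 1 and of 31 over 4.15 in replicate 2. All protein-coding genes with a peak had 51 over 7.01 and 28 over 4.20. Across the members, the fold had a Spearman rho with the control level of −0.59 in replicate 1 and −0.40 in replicate 2, and with the fragments of 0.52 and 0.59. The fold is computed from both, and the lists' limit of −log10 q leaves out low folds over low control levels. These values describe how the fold splits and nothing more. In the lower 23 members of replicate 1 by fold, the median was 47 fragments over 12, and in the upper 23 it was 74 over 6. In replicate 2, the lower 20 had 23 over 6.22 and the upper 20 had 40 over 3.70. MRPL and MRPS genes had like fragments, 56 and 58 in replicate 1 and 30 and 31 in replicate 2. Ranked by −log10 p in place of fold, the medians of all members were 92.2 and 86.3, and those of MRPS genes rose to 88.4 and 85.8. The lower fold rank of the MRPS genes was thus much smaller by −log10 p, where MRPL genes had 93.4 and 88.8.

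**Figure D4:**
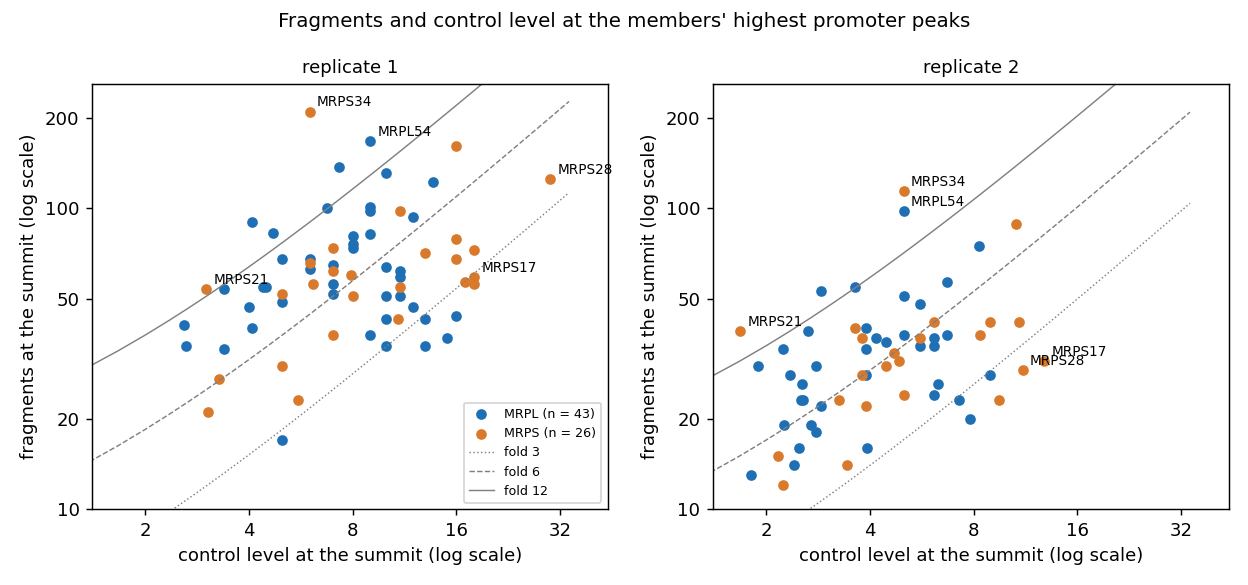
Each point is a member's highest promoter peak, with the control level at its summit (horizontal, log scale) and the fragments at its summit (vertical, log scale), blue for MRPL and orange for MRPS. Grey lines join equal folds. In replicate 1 MRPS17 and MRPS21 have 59 and 54 fragments but control levels of 18 and 3.

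A group of 18 members lacked a promoter peak in 1 or both lists. The 8 without a peak in either were MRPL33, MRPL3, MRPS30, MRPS18A, MRPL15, MRPL13, MRPL46 and MRPS11. Their nearest peak edge in replicate 1 lay between 7408 bp (MRPS18A) and 1251425 bp (MRPS30) from a start. In replicate 2 the distances ran from 8699 bp (MRPS18A) to 1135700 bp (MRPS30), so none lay just beyond the 3000 bp limit. Just inside that limit in replicate 2 lay the nearest peak edges of MRPL35 at 2853 bp, MRPS28 at 2689 bp and MRPL22 at 2374 bp, and the first one outside was that of MRPS24 at 6169 bp. MRPL46 and MRPS11 are the one pair of members that share a promoter, with 5′ ends 63 bp apart on chromosome 15. MRPS11 encodes a protein of the platform of the small subunit, and its nearest peak lay 11556 and 12546 bp away. MRPL13 lies head to head with MTBP, and neither gene had a promoter peak in a list. An absent peak says that no peak was called at this depth, not that NUDT21 was absent.

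Replicate 1 alone had a peak at 9 members and replicate 2 alone at 1. Over all protein-coding genes the counts were 2553 and 178, so the lists differed in the same direction. Of the 9, MRPL19, MRPS9, MRPL44, MRPL32, MRPL39 and MRPS6 had folds between 2.19 (MRPL44) and 3.60 (MRPL19), below the list's median of 3.95. MRPL42 had 4.0 and MRPS24 had 4.34. MRPL45 stood apart with a fold of 10.8 (7.86 to 14.6), from 41 fragments over a control level of 2.58, above 98.1% of the list. Its protein lies at the exit of the peptide tunnel and contacts the inner membrane. In replicate 2 no peak lay within 29391 bp of an MRPL45 start. The member found in replicate 2 only was MRPL22, with a fold of 2.39 at 20 fragments, in a peak whose summit was nearest to GEMIN5, which encodes a protein of the SMN complex.

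Among members with a peak in both lists, rank differed most at MRPL35, from a percentile of 13.6 in replicate 1 to 55.9 in replicate 2. The replicate 2 summit of MRPL35 lay 3196 bp upstream of its nearest start, nearest to IMMT, which encodes a scaffold protein of the inner membrane. The other 5 of the largest differences went the other way. They were MRPS28 (43.8 to 1.51), MRPL43 (60.7 to 24.7), MRPS35 (33.7 to 0.561), MRPS18B (95.1 to 63.3) and MRPS10 (74.5 to 43.5). For MRPL35, MRPS28 and MRPL43 the highest peaks of the replicates did not overlap, with summits 2692, 2917 and 1366 bp apart, so these differences compare separate peaks. For MRPS35, MRPS18B and MRPS10 they overlapped.

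Sharing of promoters was examined from the annotation. A divergent partner was a gene on the other strand with its 5′ end within 1000 bp, read away from the member or overlapping it only at the start. Of the 78 members, 33 (42.3%) had such a partner, against 26.3% of all protein-coding genes, and 27 (34.6%) had a protein-coding one, against 13.4%. Several partners also act in mitochondria. MRPS12 lies beside SARS2, which encodes the mitochondrial seryl-tRNA synthetase. MRPL43 overlaps TWNK, which encodes the mitochondrial replicative helicase, and MRPL36 and MRPL47 lie beside NDUFS6 and NDUFB5, which encode subunits of respiratory complex I. These partners were picked out for their roles after the pairs were listed, and no count of mitochondrial partners over all genes was made.

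Members with and without a partner were occupied alike. In both lists, 26 of 33 members with a partner (78.8%) and 34 of 45 without (75.6%) had a promoter peak. Median percentiles were 93.7 and 83.8 with a partner and 86.6 and 82.1 without. With a protein-coding partner, 23 of 27 members (85.2%) had a peak in both lists, and with a non-coding partner only, 3 of 6. The interval of the first share, 67.5% to 94.1%, contains the share of members without a partner.

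The 6 closest protein-coding partners were those of MRPL13, MRPL49, MRPL27, MRPL21, MRPL36 and MRPL47. MRPL49 and FAU have 5′ ends 6 bp apart, and the highest MRPL49 peaks had folds of 7.69 and 5.92. They lay 3131 and 2138 bp downstream of its nearest start, while peaks over its canonical start ranked at percentiles of 86.6 and 81.3. MRPL27 and EME1, 13 bp apart, had folds of 7.61 and 6.49, and the summits were nearest to MRPL27. MRPL21 and IGHMBP2, which encodes a helicase, are 28 bp apart, and folds were 7.43 and 6.81 with summits nearest to IGHMBP2. MRPL36 and NDUFS6, 41 bp apart, had folds of 5.45 and 4.87, the former nearest to MRPL36 and the latter to NDUFS6. Over all 29 pairs with a protein-coding partner, with MRPL46 and MRPS11 counted from both sides, the same peak was the highest of both genes in 23 pairs in replicate 1 and 20 in replicate 2. The summit was nearest to the member in 14 and 11 pairs and nearest to the partner in 9 and 11. In most of these pairs the highest peak was thus common to both genes and cannot be given to either one.

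The position of the summits was described over all members. The median distance between the summit and the member's nearest transcript start was 127 bp in replicate 1 and 179 bp in replicate 2, where all protein-coding genes with a peak had 211 and 310 bp. Within 500 bp lay 57 of 69 summits (82.6%) in replicate 1 and 39 of 61 (63.9%) in replicate 2, against 66.8% and 59.2% of all protein-coding genes. Farther than 1000 bp lay 11 summits (15.9%) in replicate 1, against 25.1% of all protein-coding genes, and 21 (34.4%) in replicate 2, against 30.5%. Relative to the canonical start, 34 of 69 and 31 of 61 summits were downstream, so they lay about evenly on either side. The summit was nearest to a start of the member among all annotated genes in 49 of 69 and 35 of 61 cases. The highest peak also lay within 3000 bp of another gene's start for 46 of 69 members in replicate 1 and 46 of 61 in replicate 2, so a promoter peak of a member is often also one of a neighbour.

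**Figure D5:**
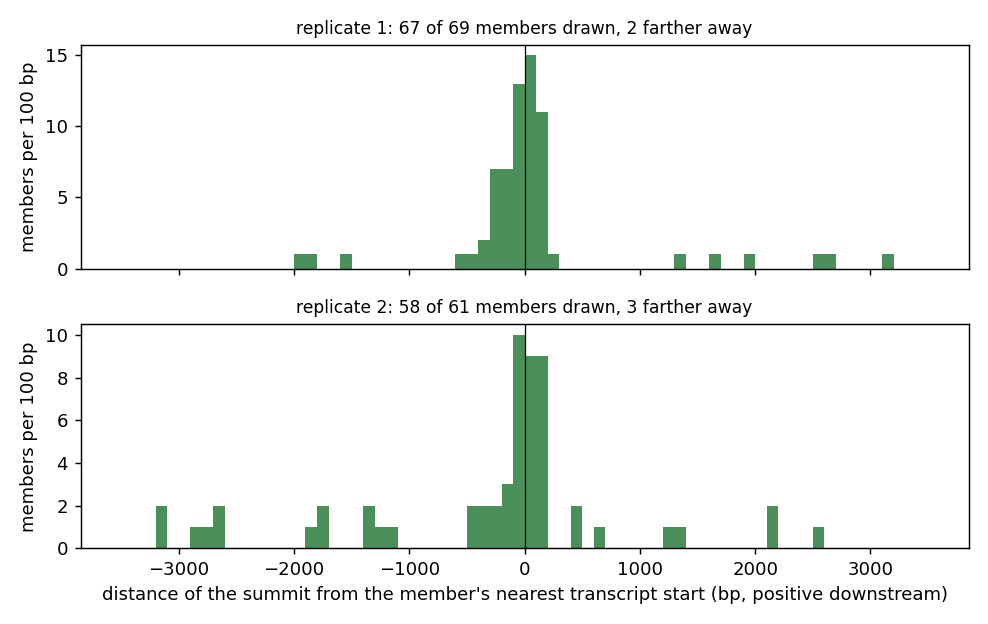
Bars count members by the distance in bp of the summit of their highest promoter peak from their nearest annotated transcript start, negative upstream. Most summits fall within 500 bp of the start, 57 of 69 in replicate 1 and 39 of 61 in replicate 2, with a wider scatter in replicate 2.

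Since NUDT21 acts at the end of transcripts, peaks at the 3′ ends of the members were counted as well. In 43 members the 3′ end lay within 3000 bp of some gene's start, where the 2 kinds of site cannot be told apart, which left 35 members. Of these, 5 (14.3%) had a peak summit within 1000 bp of the 3′ end in replicate 1 and 2 (5.71%) in replicate 2, against 12.3% and 9.18% of 11576 protein-coding genes with such ends. In replicate 1 they were MRPL37 (fold 2.84), MRPS18A (3.27), MRPL23 (3.75), MRPL21 (4.16) and MRPL48 (4.73 at the higher of its peaks). In replicate 2 they were MRPL21 (4.49) and MRPL12 (5.05). MRPL21 alone had one in both lists, with summits 594 and 599 bp past its 3′ end. MRPS18A, which had no promoter peak, had its gene-end summit 621 bp before its 3′ end in replicate 1. In replicate 2 a peak with a fold of 4.37 covered that 3′ end, but its summit lay 1543 bp past it and was not counted. The members' share at gene ends was above that of all genes in replicate 1 and below it in replicate 2. With 5 and 2 of 35 members it can show neither likeness nor difference. Starts were counted by peak edge and another distance, so the counts at starts and ends are not comparable.

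Words of known promoter factors were counted in the 300 bases around the gene's 5′ end, on both strands. The YY1 word AAGATGGCG was in 11 members (14.1%), against 1.88% of all protein-coding genes and 2.10% of genes of like GC. MRPL46 and MRPS11, with 5′ ends 63 bp apart, share a YY1 site and are both counted. The ETS word CCGGAAGT was in 9 (11.5%) against 5.10%, and the NRF1 word GCGCANGCG, in which N is any base, in 13 (16.7%) against 9.01%. YY1, NRF1 and ETS factors such as GABP are known activators of nuclear genes for mitochondria. CCAAT was in 29.5% of members and 35.9% of all genes, GGGCGG (an Sp1 word) in 57.7% and 52.4%, and TATAAA in 5.13% and 10.8%. TGTA, the DNA form of the RNA letters that NUDT21 binds, was in 59.0% and 56.2%. None of these words contains another, except that GCGCANGCG includes the stricter GCGCATGCG, which was in 6.41% and 2.35%. A match is a description of letters and not a bound site.

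Around the canonical start, 13 members held the YY1 word, at 14 places, of which 11 began within 50 bp of the start and 12 read forward. Of these 13, 6 had a promoter peak in both lists (MRPL36, MRPS18B, MRPS10, MRPL50, MRPL52 and MRPL38), 3 had none (MRPS30, MRPS18A and MRPL46), and 4 had a peak in 1 list (MRPL22, MRPL32, MRPS24 and MRPL42). The median percentile of those with a peak was 74.5 in replicate 1 (9 members) and 63.3 in replicate 2 (7 members), against 93.0 and 84.5 for members without the word. Over all protein-coding genes, 78.5% of those with the word in this window had a peak in both lists. Around the gene's 5′ end, 4 of the 11 members with the word had a peak in both lists, against 75% of all protein-coding genes with it there, and the medians were 62.8 (6 members) and 43.5 (5 members). The 11 include MRPL46 and MRPS11, which share a site and had no peak in either list. Of members with the ETS word at the 5′ end, 8 of 9 had a peak in both lists, against 76.9% of all members, with medians of 94.7 and 89.4. Of those with the NRF1 word GCGCANGCG there, 8 of 13 did, with medians of 95.0 and 71.1. The share with a peak among all protein-coding genes holding either word was not counted. These subsets are small and were not tested.

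Related genes were set beside the members. The 5 mitoribosomal proteins with other names (DAP3, AURKAIP1, CHCHD1, PTCD3 and GADD45GIP1) had a peak in both lists in 4 cases. Of 22 genes for factors that assemble the mitoribosome 18 did (81.8%), of 13 genes for mitochondrial translation factors 8 (61.5%), and of 6 genes for mitochondrial transcription and RNA 4. The mitoribosomal members, at 76.9%, lay between the translation and assembly factors. The cytosolic ribosomal protein genes, which are among the most transcribed in any cell, had a peak in both lists in 76 of 89 cases (85.4%), with median percentiles of 94.5 and 93.1. Their median percentile was above that of the mitoribosomal members in replicate 2 by more than in replicate 1, and their interval of 76.6% to 91.3% overlapped that of the members.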

How the data were processed

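NUDT21 CUT&Tag was measured in 2 replicates of J.gamma1 cells. According to the methods and the submitters' processing notes, the authors trimmed reads with fastp, aligned them to hg38 with Bowtie2 (2.2.5), removed duplicates with Picard and called peaks in each replicate with MACS3 (3.0.1). The deposited lists give each peak's fold enrichment over local background (a ratio), its summit, and there the −log10 p and the −log10 q; the lowest −log10 q was 2.00 in both. The deposited score is the −log10 q multiplied and cut to a whole number, and was not used. The annotation release of the authors is not given in the sources used here.

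From these files, peaks on chromosomes 1 to 22, X and Y were joined to GENCODE 44 by distance to transcript starts. Fragments at a summit and the control level were solved from the authors' fold, (fragments + 1)/(control + 1), and their Poisson p-value; where several solutions existed (19 of 69 members in replicate 1, 45 of 61 in replicate 2) the one nearest a whole number was taken. All 130 members' highest peaks then gave fragments within 0.05 of a whole number, after scaling replicate 1 by 0.921. Unscaled, 20.3% of replicate 1 members did. The choice of solution and the fitted scale both favour whole numbers, so these shares are no independent check. Of 291 peaks simulated at the replicate 1 scale, 289 were recovered. The replicate 2 scale and the members' highest control levels were not simulated. Genes of like GC were non-member protein-coding genes within 2 percentage points. The replicates formed 1 group without a control sample, so no test between groups was possible, and shares carry 95% Wilson intervals. Calculations used numpy 2.4.6, pandas 2.3.3 and scipy 1.17.1.

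The members and lists were chosen with earlier results of these data known. Named were the 6 highest and 6 lowest members by mean percentile, all without a peak in 1 or both lists, the 6 largest differences between replicates, the 6 closest protein-coding partners and members with gene-end peaks. Other settings tried were a −log10 q minimum of 5, lists cut to their 10000 strongest peaks by −log10 p, 1000 bp in place of 3000 bp, gene 5′ ends, summits, members without a neighbouring start, other GC definitions, other partner definitions, and each replicate alone. The canonical start alone and rank by −log10 p were added after seeing the data.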

Additional observations from a re-analysis of the deposited data

Results flagged for a closer look

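A signal appeared outside the chromosomes compared above. In each of the replicates 2 members had a peak within 3000 bp of an exact copy of their promoter on alternate sequences of the assembly. MRPS36 had 1 such copy, with folds of 8.61 in replicate 1 and 5.63 in replicate 2. MRPS18B, which lies in the major histocompatibility region, had the other copies, with replicate 1 folds between 9.23 and 12.6 and replicate 2 folds between 6.94 and 12.7. All 7 copies had a peak in each replicate. On the main chromosomes the highest peaks of MRPS18B had folds of 8.15 and 4.70, so its values there rest on a sequence that is present several times. How reads were shared between the copies was not tested.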

How the results depend on the processing

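Of 59 values under alternatives, 45 stayed within the spread used to judge them and 2 changed sign. The excess of members over genes of like GC in the share with a peak in both lists stayed positive under each alternative run. With the 10000 peaks per list, 33 members (42.3%) had a peak in both, against 27.1% of genes of like GC. The median percentiles within the shortened lists were 63.0 and 57.8, and the differences from genes of like GC were 2.60 and −7.03. Among the 27 members without a neighbouring start, 18 (66.7%) had a peak in both, against 50.2% of genes of like GC restricted alike. The replicate 1 median was 72.7, and the differences were −3.97 and 8.14. With a −log10 q of at least 5 the replicate 2 median was 77.1. The replicate 1 difference was 11.5 with gene 5′ ends, and the replicate 2 difference was 8.40 with GC over 1000 bp either side. With the canonical start alone the differences were 11.7 and 7.61. The cause of these shifts was not tested. With each replicate alone the count with a peak ran from 61 to 69. No paired analysis was possible because both replicates belong to 1 group. Replicate 2 had fewer fragments per summit (median 31 against 57). The part of depth in its missing calls was not tested, and MRPL45, with 41 fragments in replicate 1, had none there.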
